A study of Mus musculus with 12 samples.

Results

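Catecholamines are made and cleared by a short chain of proteins, and the 9 genes that encode it were followed through the striatum of hemiparkinsonian mice: Th, Ddc, Dbh, Pnmt, Gch1, Slc6a3, Slc18a2, Maoa and Maob. They were taken by gene symbol from a transcript table of 52169 symbols and 189660 transcripts, of which 61 transcripts carry these 9 names. Each gene is given by its transcript with the highest mean level over all libraries. Levels are CPM, read counts brought to a common library total, scaled by the trimmed mean of M-values (TMM) over all transcripts.

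Female C57BL/6J mice received 6-OHDA, a toxin of catecholamine neurons (3 µg/µl, 1 µl), in the right medial forebrain bundle, after desipramine (25 mg/kg, 30 min earlier), which keeps the toxin out of noradrenergic neurons. After 2 weeks of recovery they were given L-DOPA (10 mg/kg) with benserazide (7.5 mg/kg), an inhibitor of DDC outside the brain, either once (acute L-DOPA) or daily on 9 days (chronic L-DOPA), and striatal punches were taken 1 h after the last injection. The 4 groups of 3 libraries are the unlesioned and the lesioned striatum after acute L-DOPA and the unlesioned and the lesioned striatum after chronic L-DOPA. No group without L-DOPA was analysed here, so every level below is one reached under the drug. Different mice received the 2 treatments, so any difference in handling between them and the number of injections cannot be told apart.

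As background, TH turns tyrosine into L-DOPA, with a cofactor, tetrahydrobiopterin, whose synthesis begins with GCH1. DDC turns L-DOPA into dopamine, DBH turns dopamine into noradrenaline, and PNMT turns noradrenaline into adrenaline. The vesicular transporter encoded by Slc18a2 loads monoamines into vesicles, the dopamine transporter encoded by Slc6a3 takes dopamine back into the terminal, and the monoamine oxidases MAOA and MAOB break it down. In the striatum most of the TH protein lies in the terminals of midbrain dopamine neurons, whose cell bodies, and with them most of their mRNA, are elsewhere.

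RefSeq promoter windows (build GRCm38.p6, from 250 bases before to 50 bases after a start site) were at hand for 7 of the 9 genes, all but Pnmt and Maob. They were searched on both strands for the motifs of factor families that respond to activity in neurons: the cAMP response element (CRE, TGACGTCA), the AP-1 motif (TGANTCA), the Egr motif (GCGNGGGCG) and the NBRE motif of the Nr4a receptors (AAAGGTCA). The windows of Th and Slc18a2 are shown because both hold a complete CRE while the mRNA of only the former is called changed in the comparisons below. Capitals mark matches to any of the motifs, and no matches overlap.
Th, chr7:142899946-142900245, minus strand: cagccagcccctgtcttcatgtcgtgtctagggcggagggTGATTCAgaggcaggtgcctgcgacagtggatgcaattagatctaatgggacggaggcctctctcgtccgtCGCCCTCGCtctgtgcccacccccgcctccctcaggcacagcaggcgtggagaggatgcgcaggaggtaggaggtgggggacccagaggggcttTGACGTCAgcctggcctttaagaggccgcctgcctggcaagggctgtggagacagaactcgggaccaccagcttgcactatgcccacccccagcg
Slc18a2, chr19:59260628-59260927, plus strand: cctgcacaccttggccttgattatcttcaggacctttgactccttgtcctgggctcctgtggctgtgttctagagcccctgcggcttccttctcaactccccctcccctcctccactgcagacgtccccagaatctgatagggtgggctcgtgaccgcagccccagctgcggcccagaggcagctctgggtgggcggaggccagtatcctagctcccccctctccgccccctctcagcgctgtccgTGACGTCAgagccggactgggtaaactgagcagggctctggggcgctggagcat
In the Th window the matches are, from the left, an AP-1 motif beginning 210 bases before the start site, an Egr motif on the other strand beginning 139 bases before it, and the CRE beginning 45 bases before it. In the Slc18a2 window the CRE begins 4 bases before the start site. Of the other 5 genes with a window, Ddc had matches, in 1 of its 2 windows: an AP-1 motif and an NBRE motif, which begin 129 and 73 bases before the start site. Among all 32851 windows in the table, 1.79% hold the CRE, 7.81% the AP-1 motif, 5.55% the Egr motif and 1.51% the NBRE motif. A match describes the sequence only and was not tested as a binding site.

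Members were tested with edgeR's quasi-likelihood test, fitted on all transcripts that passed a filter on low counts, and were called at a Benjamini-Hochberg adjusted p under 0.05. Of the 9 genes, 7 passed the filter in every comparison and 2, Dbh and Slc6a3, passed in none. Values after ± are SD over 3 libraries (n = 3), and SE marks the error of a log2 fold change.

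After acute L-DOPA no difference between the lesioned and unlesioned striata passed the test without a block: edgeR called 0 of the 7 tested genes, with 2 at an unadjusted p under 0.05 and 0 called by DESeq2. When the fit took the replicate block, 3 were called, Th lower (adjusted p = 0.0288) and Maoa and Maob higher (adjusted p = 0.0254 and 0.0234). The background of called genes in this comparison is 15.3% without and 25.1% with the block. After chronic L-DOPA, 3 were called, Th, Pnmt and Gch1, all higher in the lesioned striatum, where 13.7% of all genes tested were called and 8.46% were called higher. With the block 4 were called, these and Maob lower (-0.26, adjusted p = 0.0472), against a background of 24.2%. Th rose 5.24-fold, Pnmt 10.4-fold and Gch1 2.29-fold. The median log2 fold change over the 7 genes was 0.12 after acute and 0.14 after chronic L-DOPA, against 0.02 and -0.01 over all genes tested.

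**Figure D1:**
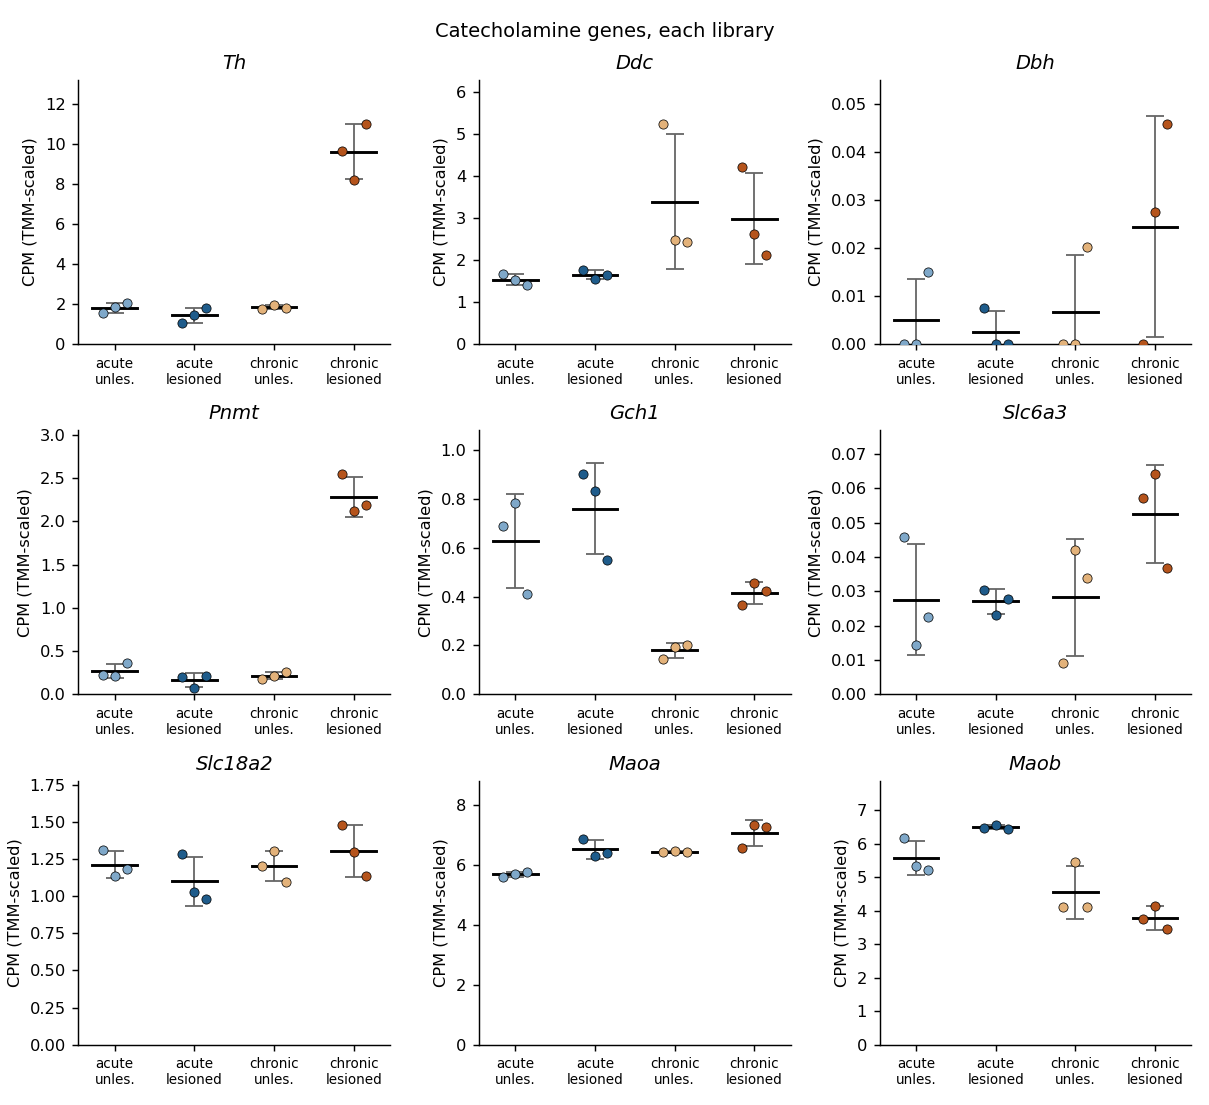
TMM-scaled CPM of each of the 9 genes (y axis, from 0, with its own scale in each panel) in the 4 groups (x axis; unles., unlesioned). Points are single libraries, the thick line is the mean and the bar the SD (n = 3). Th and Pnmt are high in the 3 chronic lesioned libraries, at 8.21 to 11.0 CPM and 2.11 to 2.55 CPM, above all the other libraries.

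Th (transcript NM_009377, mm9 chr7:150078681-150085871, minus strand, 13 exons), the rate-limiting enzyme of the pathway, was at 1.54, 1.83 and 2.04 CPM in the 3 acute unlesioned libraries and at 1.07, 1.43 and 1.79 CPM in the acute lesioned ones. In the chronic unlesioned libraries it was at 1.76, 1.96 and 1.80 CPM. In the chronic lesioned libraries it was at 9.67, 8.21 and 11.01 CPM. Each chronic lesioned library thus held several times the level of any other, while the remaining 3 groups overlapped. The mean rose from 1.84 ± 0.107 CPM in the unlesioned to 9.63 ± 1.40 CPM in the lesioned striatum under chronic L-DOPA, a log2 fold change of 2.39 (SE 0.12, edgeR adjusted p = 4.47e-07). Within the lesioned striatum, Th was 6.77-fold higher after chronic than after acute L-DOPA (log2 fold change 2.76, SE 0.17, edgeR adjusted p = 2.44e-06). In the unlesioned striatum the corresponding log2 fold change was 0.03 (SE 0.12, edgeR adjusted p = 0.902). After acute L-DOPA Th was at a log2 fold change of -0.33 in the lesioned against the unlesioned striatum (SE 0.17, edgeR adjusted p = 0.225), and it was called lower when replicate number entered the fit as a block (-0.34, adjusted p = 0.0288). It was also called without the third acute lesioned library (-0.54, adjusted p = 0.0464). All 9 Th transcripts in the table were called higher in the chronic comparison, with log2 fold changes from 2.23 to 2.40, and 1 of the 9 was called lower in the acute one without a block, where they ran from -0.65 to -0.26. Their reads overlap, so these are not independent measurements.

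Pnmt (ENSMUST00000041301, mm9 chr11:98247764-98249495, plus strand, 3 exons), the last enzyme of the chain, moved in the same comparisons from a lower level. The acute unlesioned libraries had 0.223, 0.217 and 0.367 CPM and the acute lesioned ones 0.204, 0.0694 and 0.214 CPM. After chronic L-DOPA the unlesioned libraries had 0.183, 0.209 and 0.256 CPM, and the lesioned ones 2.55, 2.11 and 2.19 CPM. In counts, these last libraries held 223, 231 and 239 reads, against 6 to 49 in each of the other 9. The rise in the lesioned against the unlesioned striatum after chronic L-DOPA was 3.38 on the log2 scale (SE 0.17, edgeR adjusted p = 4.32e-07), from a mean of 0.216 ± 0.0372 to 2.28 ± 0.230 CPM. In the lesioned striatum the rise from acute to chronic L-DOPA was 13.3-fold (log2 fold change 3.73, SE 0.24, edgeR adjusted p = 3.19e-06). In the unlesioned striatum Pnmt was at -0.29 (SE 0.27, edgeR adjusted p = 0.583). The acute comparison gave -0.64 (SE 0.35, edgeR adjusted p = 0.255). No other gene of the table overlaps Pnmt. Its neighbours, read after the values of Pnmt were seen, followed other courses. Pgap3 had a log2 fold change of -0.09 in the chronic comparison (SE 0.13, edgeR adjusted p = 0.716), and Tcap, at 0.0362 to 0.0877 CPM in the unlesioned libraries, was at 0.0571 to 0.0916 CPM in the chronic lesioned ones. Tcap was called higher in the acute lesioned libraries, at 0.231 to 0.250 CPM (log2 fold change 2.20, SE 0.32, edgeR adjusted p = 0.000940), with a difference of the lesion effects of -2.38 (edgeR adjusted p = 0.00778).

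Gch1 (AK150657, mm9 chr14:47773570-47809088, minus strand, 6 exons) had a different course. It was at 0.691, 0.783 and 0.412 CPM in the acute unlesioned and 0.901, 0.832 and 0.548 CPM in the acute lesioned libraries. After chronic L-DOPA it was at 0.146, 0.193 and 0.202 CPM in the unlesioned and 0.365, 0.458 and 0.422 CPM in the lesioned libraries. Both chronic groups thus lay below the acute groups of the same side, and within the chronic treatment the lesioned libraries lay above the unlesioned ones. The difference between the sides after chronic L-DOPA was 1.19 on the log2 scale (SE 0.23, edgeR adjusted p = 0.00826). In the unlesioned striatum Gch1 was 3.45-fold lower after chronic than after acute L-DOPA (log2 fold change -1.78, SE 0.27, edgeR adjusted p = 0.0134), and in the lesioned striatum 1.83-fold lower (-0.87, SE 0.22, edgeR adjusted p = 0.0160). The call in the lesioned striatum was lost without acute lesioned replicate 1 (-0.71, adjusted p = 0.0744), acute lesioned replicate 2 (-0.81, adjusted p = 0.0631) or chronic lesioned replicate 1 (-0.79, adjusted p = 0.0664). The call in the unlesioned striatum was lost without acute unlesioned replicate 1 (adjusted p = 0.0898) or 2 (adjusted p = 0.0688) or chronic unlesioned replicate 3 (adjusted p = 0.0519). The acute comparison gave 0.28 (SE 0.23, edgeR adjusted p = 0.470). Of the 3 Gch1 transcripts tested, 2 were called higher in the chronic comparison, 2 lower in the lesioned and 3 lower in the unlesioned striatum.

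Ddc (NM_016672, mm9 chr11:11714104-11790411, minus strand, 15 exons), which converts the injected L-DOPA to dopamine, differed between the treatments and not detectably between the sides. It was at 1.66, 1.51 and 1.41 CPM in the acute unlesioned and 1.76, 1.55 and 1.64 CPM in the acute lesioned libraries. The chronic unlesioned libraries had 5.24, 2.47 and 2.44 CPM and the chronic lesioned ones 4.21, 2.62 and 2.13 CPM. All 6 chronic libraries lay above all 6 acute ones, and the first replicate was the highest on both sides of the chronic groups. The rise from acute to chronic L-DOPA was 0.84 on the log2 scale in the lesioned striatum (SE 0.21, edgeR adjusted p = 0.0158) and 1.14 in the unlesioned striatum (SE 0.26, edgeR adjusted p = 0.0459). Without the first chronic library these values were 0.52 and 0.68, both still called. The call in the lesioned striatum was lost without acute lesioned replicate 2 (0.80, adjusted p = 0.0628). The call in the unlesioned striatum was lost without any 1 of the 3 acute unlesioned libraries (adjusted p = 0.160, 0.139 and 0.138) and without chronic unlesioned replicate 3 (adjusted p = 0.0590). It was also lost in a fit on 1 transcript per gene (adjusted p = 0.0520) and on the sum of the transcripts of each gene (adjusted p = 0.0982). Between the sides, the log2 fold change was 0.12 after acute (SE 0.11, edgeR adjusted p = 0.495) and -0.18 after chronic L-DOPA (SE 0.31, edgeR adjusted p = 0.773).

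Dbh (NM_138942, mm9 chr2:27021027-27038724) and Slc6a3 (NM_010020, mm9 chr13:73674195-73716120), the 2 genes by which noradrenergic and dopaminergic neurons are best known, were close to the limit of counting. Dbh had 0 to 5 reads in a library and Slc6a3 1 to 8 reads. Dbh had 0, 0 and 2 reads in the acute unlesioned, 1, 0 and 0 in the acute lesioned, 0, 0 and 3 in the chronic unlesioned and 0, 3 and 5 in the chronic lesioned libraries. Slc6a3 had 8, 2 and 3, then 4, 2 and 3, then 1, 5 and 5, and last 5, 7 and 4 reads in the same order of groups. A count of 0 allows up to 3 reads, or 0.0171 to 0.0347 CPM depending on the library, a limit for counting error alone. Differences between the groups were not detectable for these genes at this depth.

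**Figure D2:**
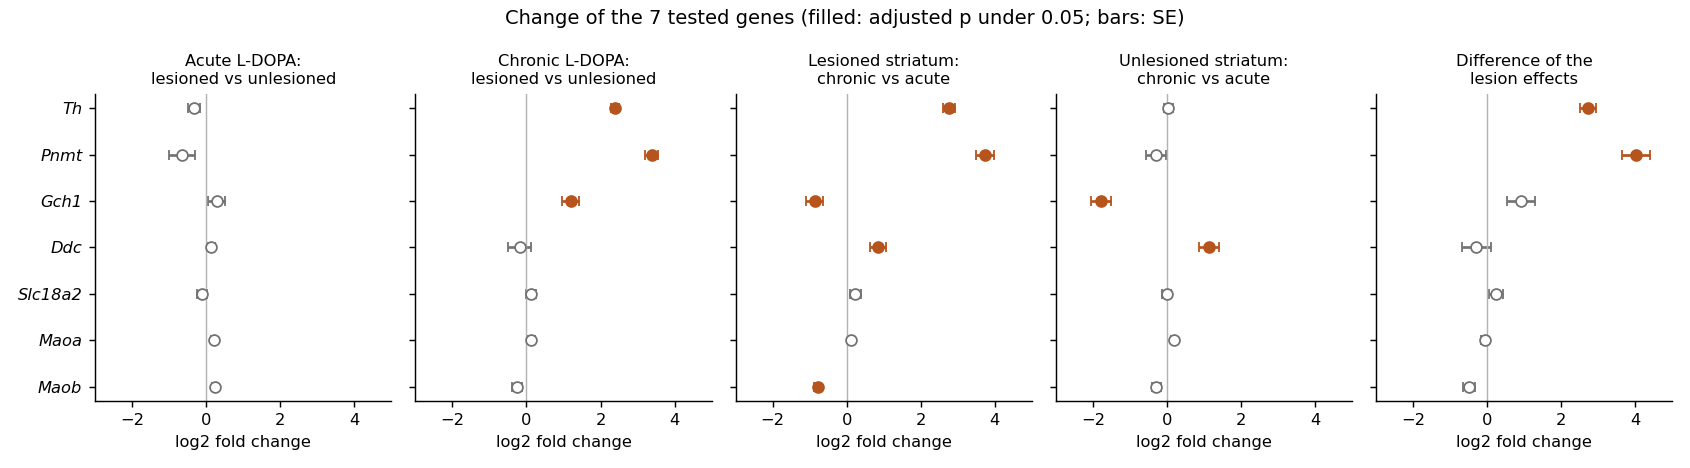
Log2 fold changes with SE (x axis) of the 7 tested genes (y axis) in the 5 comparisons, 1 panel each, with filled points for an adjusted p under 0.05. Th and Pnmt are far to the right in both comparisons that involve the chronic lesioned striatum and in the difference of the lesion effects, at 2.72 and 4.02.

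Slc18a2, the vesicular transporter, cannot be read without Pdzd8, a gene on the opposite strand whose end overlaps it. The transcript with the highest level (AK165147, mm9 chr19:59370392-59371876) is 1485 bases long, and 1303 of them lie inside the RefSeq transcript of Pdzd8 (NM_001033222, mm9 chr19:59370574-59420270). The kit used for the libraries does not keep the strand, so reads of the overlap can come from either gene. AK165147 was at 0.985 to 1.48 CPM over the 12 libraries, and its log2 fold changes lay between -0.12 and 0.24 over the 5 comparisons, none of them called. The RefSeq transcript of Slc18a2 (NM_172523, mm9 chr19:59335368-59370502), a choice added after the data were seen because it does not overlap the RefSeq Pdzd8 transcript, was at 0.711 to 1.22 CPM. It still overlaps a shorter Pdzd8 clone, as all 9 Slc18a2 transcripts do. By this transcript the acute difference was 0.37 (SE 0.15, edgeR adjusted p = 0.135), opposite in sign to the -0.12 by AK165147 (SE 0.13, edgeR adjusted p = 0.585). Pdzd8 itself was at 15.9 to 21.3 CPM. After acute L-DOPA it was at -0.20 in the lesioned striatum (SE 0.06, edgeR adjusted p = 0.0565), and it was called lower with the replicate block (adjusted p = 0.0120).

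**Figure D3:**
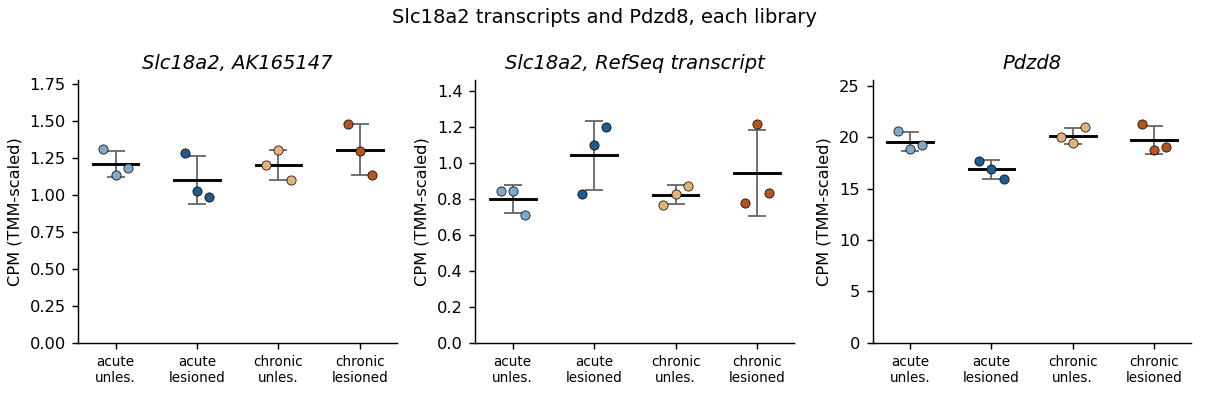
TMM-scaled CPM (y axis, from 0) of 2 Slc18a2 transcripts and of Pdzd8 in the 4 groups (x axis), with points for libraries, thick lines for means and bars for SD (n = 3). In the acute groups the overlapping transcript and Pdzd8 have their lower mean in the lesioned striatum, at 1.10 and 16.9 CPM, and the RefSeq transcript has its higher mean there, at 1.04 CPM.

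The monoamine oxidase genes lie side by side on the X chromosome. Maoa (NM_173740, mm9 chrX:16196824-16264938, plus strand) was at 5.59, 5.70 and 5.76 CPM in the acute unlesioned and 6.87, 6.29 and 6.38 CPM in the acute lesioned libraries. It was at 6.42, 6.47 and 6.42 CPM in the chronic unlesioned and 6.56, 7.34 and 7.27 CPM in the chronic lesioned libraries. The lesioned libraries lay above the unlesioned ones within each treatment, by 0.21 after acute (SE 0.07, edgeR adjusted p = 0.0576) and by 0.14 on the log2 scale after chronic L-DOPA (SE 0.08, edgeR adjusted p = 0.348). With the replicate block the acute difference was called (adjusted p = 0.0254), and without it 1 of the 6 Maoa transcripts was called higher.

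Maob (NM_172778, mm9 chrX:16286407-16394492, minus strand), whose enzyme is found mainly in astrocytes and serotonin neurons, was at 6.17, 5.33 and 5.21 CPM in the acute unlesioned and 6.47, 6.57 and 6.44 CPM in the acute lesioned libraries. The chronic unlesioned libraries had 4.10, 5.46 and 4.10 CPM and the chronic lesioned ones 3.75, 4.15 and 3.44 CPM. In the lesioned striatum, Maob was 1.72-fold lower after chronic than after acute L-DOPA (log2 fold change -0.78, SE 0.09, edgeR adjusted p = 0.000277), and all 5 of its transcripts were called lower. In the unlesioned striatum the value was -0.29 (SE 0.12, edgeR adjusted p = 0.191). Without the second chronic unlesioned library it was -0.45 and called (edgeR adjusted p = 0.0106). Between the sides, Maob was at 0.23 after acute (SE 0.08, edgeR adjusted p = 0.0714, 0.0234 with the replicate block) and at -0.26 after chronic L-DOPA (SE 0.13, edgeR adjusted p = 0.241, 0.0472 with the block). Without the first acute unlesioned library the acute difference was 0.31 and called (edgeR adjusted p = 0.0294).

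Set against all genes, 5 of the 7 tested members were called in the lesioned striatum between chronic and acute L-DOPA, where the background is 25.6%: Th, Pnmt and Ddc were higher and Gch1 and Maob lower, with 12.5% of all genes called higher and 13.1% lower. In the unlesioned striatum 2 were called, Ddc higher and Gch1 lower, against a background of 3.07%, of which 1.07% higher and 1.99% lower. Whether the lesion effect itself differed between the treatments was tested as an interaction over all 12 libraries. It was called for 2 of the 7, against a background of 5.10%, with 3.53% higher: Th (2.72, SE 0.22, edgeR adjusted p = 3.72e-06) and Pnmt (4.02, SE 0.39, edgeR adjusted p = 1.94e-05), both higher after chronic L-DOPA. For Gch1 the difference was 0.91 (SE 0.37, edgeR adjusted p = 0.190) and for Maob -0.49 (SE 0.16, edgeR adjusted p = 0.0997). With the replicate block both were called (adjusted p = 0.0317 and 0.00946), which makes 4 of the 7 against a background of 13.4%. The comparisons share libraries, so the same chronic lesioned values enter 3 of them.

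To compare genes with one another, CPM was divided by transcript length. In the acute unlesioned striatum Maob was highest at 2.31 CPM per kilobase, followed by Maoa at 1.37, Th at 1.03, Slc18a2 by AK165147 at 0.816 and Ddc at 0.781. Pnmt was at 0.233, Gch1 at 0.226, Slc6a3 at 0.00797 and Dbh at 0.00219 CPM per kilobase. The place of Slc18a2 depends on the transcript: by its RefSeq transcript it was at 0.210 CPM per kilobase, below Ddc, Pnmt and Gch1. In the chronic lesioned striatum Th was highest at 5.48 and Pnmt was second at 1.98 CPM per kilobase, ahead of Maoa at 1.70 and Maob at 1.57.

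The rise in Th and Pnmt was set beside markers of the cells that normally carry catecholamines. Of 9 dopamine neuron markers, 6 had at most 3 reads in every chronic lesioned library; Foxa2 had 0 in all 12 libraries. Of the other 3, Slc6a3 is given above, Aldh1a1 had 6.32 to 6.86 CPM in these libraries against 6.33 to 8.02 in the chronic unlesioned ones, and Ret, a receptor for neurotrophic factors, was at 3.75, 5.62 and 5.64 CPM against 0.585, 2.09 and 0.445. The summed level of the list was 10.2 to 12.6 CPM in the chronic lesioned libraries, 6.85 to 10.2 in the chronic unlesioned, 7.88 to 10.5 in the acute lesioned and 7.17 to 9.52 in the acute unlesioned ones. Of 4 noradrenergic markers, which include Dbh, none was high enough to be tested, and their summed level was at most 0.0674 CPM in any library. Ppp1r1b, a marker of striatal spiny neurons, was at 364 to 634 CPM in all 12 libraries. Of 10 spiny neuron markers, 4 were called higher and 4 lower on the lesioned side after acute and 2 higher and 1 lower after chronic L-DOPA, against 15.3% and 13.7% of all genes. Drd1a, the dopamine D1 receptor, fell by 2.30 and fell by 1.32 on the log2 scale in these comparisons, and Penk, the enkephalin precursor, rose by 0.94 and 1.12. Of 9 interneuron markers, 3 were called higher and 2 lower on the lesioned side after chronic L-DOPA, against 13.7% of all genes. Npy was higher by 0.81, Sst by 0.33 and Gad1, made by spiny neurons too, by 0.95 on the log2 scale. Nos1 fell by 0.53 and Slc5a7 fell by 0.35 on the same scale. Their summed level was 312 to 356 CPM in the chronic lesioned libraries, 196 to 245 in the chronic unlesioned, 207 to 228 in the acute lesioned and 187 to 206 in the acute unlesioned ones. Most of that sum is Gad1, which was at 228 CPM on average in the chronic lesioned and 119 CPM in the chronic unlesioned libraries, while the median log2 fold change over the 9 markers was -0.31 in the chronic comparison. The part of these cells in the rise of Th and Pnmt was not tested. In bulk tissue more cells of a type and more RNA per cell cannot be told apart.

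Markers of glia were read beside the fall of Maob in the lesioned striatum from acute to chronic L-DOPA, a comparison in which 13.1% of all genes were called lower. Of 8 astrocyte markers, 4 were called lower and 0 higher, with a median log2 fold change of -0.30. The summed astrocyte level was 636 to 661 CPM in the chronic lesioned and 603 to 779 in the acute lesioned libraries, and none of these markers was near 0. The astrocyte marker Gfap was not among the lower ones, at 54.7 ± 14.5 CPM in the chronic lesioned and 38.5 ± 11.1 CPM in the acute lesioned striatum (log2 fold change 0.50, edgeR adjusted p = 0.107). All 6 oligodendrocyte markers and 6 of 8 microglial markers were called lower by edgeR too, with summed levels of 1164 to 2077 against 2107 to 3492 CPM and of 53.3 to 68.0 against 84.1 to 98.7 CPM. DESeq2 called 2 of the oligodendrocyte and 6 of the microglial markers. Of 4 serotonin markers only Tph2 was tested, and its level was 0.0685 to 0.220 CPM against 0.158 to 0.439. In the unlesioned striatum 2 of 8 astrocyte, 3 of 8 microglial and 0 of 6 oligodendrocyte markers were called lower after chronic L-DOPA. For the oligodendrocyte markers 2 were at an unadjusted p under 0.05 and 0 were called by DESeq2. The background there was 1.99% of all genes called lower, and the medians were -0.22, -0.47 and -0.20. The part of these markers in the fall of Maob was not tested.

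Some libraries stood apart in tissue that a punch can take along. The second chronic unlesioned library held 451 CPM of Ttr, a choroid plexus gene, against at most 1.5 CPM elsewhere. Without it, the chronic comparison still called 3 members and the unlesioned comparison called 3. Cortical markers varied within groups, and their summed level was lower on the lesioned side in all 6 pairs of the same number. It was 4.84 to 26.3 CPM in the chronic lesioned and 8.81 to 45.9 in the chronic unlesioned libraries. In the acute groups it ran from 5.72 to 19.6 CPM in the lesioned and from 15.8 to 33.6 in the unlesioned libraries. Not every marker followed the sum: Cux2 was at 2.92, 2.91 and 3.21 CPM in the acute lesioned against 2.53, 2.23 and 2.37 in the acute unlesioned libraries. Of the 7 cortical markers tested, 1 was called higher and 1 lower in the acute comparison, against 15.3% of all genes. In the chronic one 0 were called by edgeR (1 at an unadjusted p under 0.05, 0 called by DESeq2), against 13.7%. The medians were -1.35 and -1.52 on the log2 scale. The part of these markers in the differences between the sides was not tested. In the lesioned striatum between the treatments, where 25.6% of all genes were called, 1 of 6 endothelial markers was called higher and 1 lower, and 2 of 3 blood markers were called lower, with a median of -1.23 on the log2 scale. Of 4 choroid plexus markers tested there, 2 were called higher and 0 lower, with a median of 1.42. Their summed level was 8.14 to 11.7 CPM in the chronic lesioned and 3.67 to 5.26 in the acute lesioned libraries. It was 8.65 to 481 CPM in the chronic unlesioned and 4.22 to 5.31 in the acute unlesioned ones. The part of these markers in the differences between the treatments was not tested. The libraries held 87695043 to 173116525 counts over all transcripts.

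The wider pathway was followed with a list of 35 genes, of which 34 were in the table and 21 were tested. In the acute comparison 1 was called higher and 1 lower, which is 9.52% of the list against 15.3% of all genes. In the chronic comparison 2 were higher and 3 lower, 23.8% against 13.7%, and with the replicate block 5 were called, 23.8% against 24.2%. In the lesioned striatum between the treatments 3 were higher and 4 lower, 33.3% against 25.6%. By edgeR 0 were called in the unlesioned striatum (4 at an unadjusted p under 0.05, 0 called by DESeq2), where the background is 3.07%, and 1 was called in the interaction, 4.76% against 5.10%. With the replicate block the calls went from 2 to 5 in the acute comparison and from 1 to 5 in the interaction, each 23.8% of the list, against backgrounds of 25.1% and 13.4% with the block. The median log2 fold change of the list was 0.12, -0.09, -0.17, -0.05 and -0.18 in these comparisons, in the order given, against 0.02, -0.01, -0.02, -0.0043 and -0.03 over all genes.

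Among regulators, Nr4a2, a nuclear receptor that dopamine neurons need to express Th, was highest in the chronic lesioned striatum. It was at 4.27, 1.69 and 1.88 CPM in the acute unlesioned and 8.33, 5.50 and 5.16 CPM in the acute lesioned libraries. It was at 2.25, 0.360 and 4.44 CPM in the chronic unlesioned and 39.7, 25.9 and 28.4 CPM in the chronic lesioned libraries. It was thus higher in the lesioned striatum by 1.27 on the log2 scale after acute (SE 0.29, edgeR adjusted p = 0.0140) and by 3.71 after chronic L-DOPA (SE 0.55, edgeR adjusted p = 0.00163). With a library left out, the acute value ran from 1.01, without acute lesioned replicate 1, to 1.85, without acute unlesioned replicate 1. The chronic value ran from 3.21, without chronic unlesioned replicate 2, to 4.60, without chronic unlesioned replicate 3. In the chronic unlesioned libraries Nr4a2 followed the order of the summed cortical markers, at 27.9, 8.81 and 45.9 CPM. In each other group library 1 was highest for both, and the order of the remaining libraries differed. The part of cortical tissue in these values was not tested. Between the treatments, Nr4a2 was higher after chronic L-DOPA in the lesioned striatum (2.30, SE 0.19, edgeR adjusted p = 2.58e-05) and at -0.15 in the unlesioned striatum (SE 0.57, edgeR adjusted p = 0.913). The acute call was lost without acute unlesioned replicate 3 (adjusted p = 0.0676) and by DESeq2 (adjusted p = 0.0618), and kept with the replicate block (adjusted p = 1.94e-06). The difference of these effects was 2.44 (SE 0.70, edgeR adjusted p = 0.0639) and ran from 1.87 to 3.34 with a library left out, and it was called with the replicate block (2.55, adjusted p = 0.00505) and without chronic unlesioned replicate 2 or 3 or chronic lesioned replicate 2 (adjusted p = 0.0323, 0.0128 and 0.0443). Of the other 7 genes of that list, which include Pitx3 and Foxa2, 6 had at most 3 reads in every chronic lesioned library.

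Among cofactor genes, Pdxk, which makes the pyridoxal phosphate that DDC needs, rose on the lesioned side after chronic L-DOPA from 66.4 ± 4.10 to 91.0 ± 5.07 CPM (log2 fold change 0.46, SE 0.08, edgeR adjusted p = 0.00521). Qdpr, which regenerates tetrahydrobiopterin, was lower in lesioned striata on chronic L-DOPA than on acute L-DOPA, at 31.7 ± 11.3 against 63.8 ± 9.44 CPM (log2 fold change -1.01, SE 0.21, edgeR adjusted p = 0.00676). The 6 oligodendrocyte markers were called lower by edgeR in the same comparison, with a median of -0.84, and DESeq2 called 2 of them. Qdpr followed the order of their summed level within both groups, at 20.9, 43.5 and 30.6 CPM against 1164, 2077 and 1364 CPM in the chronic lesioned libraries. Their part in the fall of Qdpr was not tested. Among breakdown genes, Aldh2, an aldehyde dehydrogenase, fell from 15.6 ± 1.83 CPM in the unlesioned to 12.0 ± 0.688 CPM in the lesioned striatum under chronic L-DOPA (log2 fold change -0.37, SE 0.10, edgeR adjusted p = 0.0324). The call of Aldh2 was lost without chronic unlesioned replicate 2 or 3 or chronic lesioned replicate 1 or 3 (adjusted p from 0.0921 to 0.128). With the replicate block the adjusted p was 0.00192. In the lesioned striatum Sult1a1, a sulfotransferase, was higher after chronic than after acute L-DOPA by 0.71 (SE 0.21, edgeR adjusted p = 0.0359). With the replicate block the adjusted p was 0.0595, but libraries that share a number across treatments come from different mice, so this block pairs unrelated libraries. The call was also lost without any library but the second chronic lesioned one (adjusted p from 0.0569 to 0.131). The value was 0.41 without chronic lesioned replicate 1, the lowest of these. Among transporters, Slc22a3, which takes up monoamines outside the terminals, was lower in the lesioned striatum after both treatments. It fell by 0.53 on the log2 scale after acute (edgeR adjusted p = 0.00315) and fell by 0.72 after chronic L-DOPA (edgeR adjusted p = 0.00570).

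**Figure D4:**
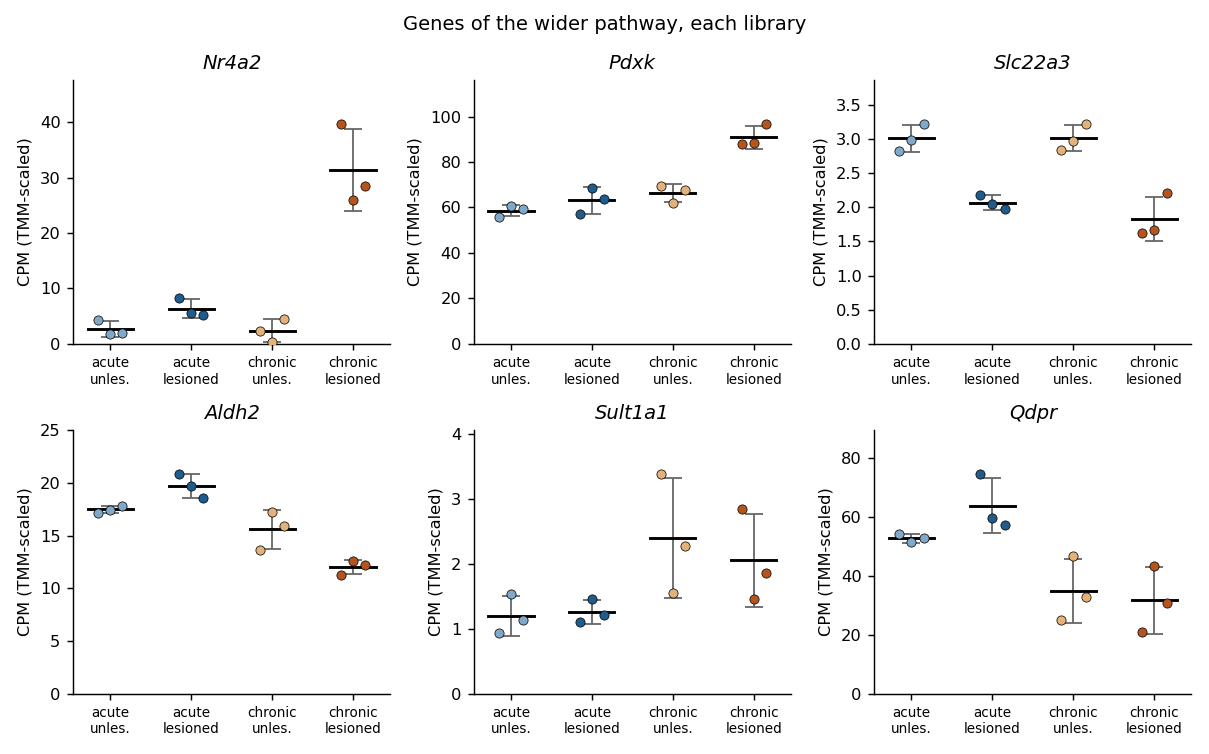
TMM-scaled CPM (y axis, from 0, with its own scale in each panel) of 6 genes from the wider pathway in the 4 groups (x axis), with points for libraries, thick lines for means and bars for SD (n = 3). Nr4a2 is at 25.9 to 39.7 CPM in the chronic lesioned libraries and at most at 8.33 CPM elsewhere, and Slc22a3 is lower on the lesioned side in both treatments.

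The genes whose levels were most like those of a member were found by Pearson's r of log2(CPM + 0.5) over the 12 libraries, among 12725 genes with a median of at least 1 CPM. For Th they were Rrp1 (r = 0.985), Gmppb (r = 0.984) and Ppif (r = 0.983). For Pnmt, which lies below the level set for this search and was added after its values were seen, they were Bcl9 (r = 0.986), Gmppb (r = 0.984) and Th itself (r = 0.982). For Ddc they were Cwc27 (r = 0.943), Alg6 (r = 0.943) and Kdsr (r = 0.935). For Maoa they were Ccs (r = 0.918), Sparc (r = 0.918) and Gxylt1 (r = 0.905), and for Maob Eef1d (r = 0.970), Oat (r = 0.969) and Gm13111 (r = 0.962). For Slc18a2 by AK165147 Rbm15 (r = 0.869) and Fuca2 (r = 0.865) were among the 3. These values are a description, since libraries of a group share their treatment, and for Th and Pnmt they rest on 3 libraries that stand far above the other 9.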

How the data were processed

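The authors prepared TruSeq libraries from striatal RNA, mapped the reads to mm9, and deposited counts per transcript without normalization, together with a normalized signal per transcript, which was used only to check the counts. The strand setting of the counting is not given in the sources used here. DESeq is named in the submitters' processing notes, and the deposited tables of the authors' comparisons, which hold fold changes and p-values and another 36 columns of values per sample, were not used. A read is counted on every transcript it overlaps. Rows without a gene symbol (296, holding 0.0485% of counts) were left out of the totals and calls by gene.

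Counts were fitted in edgeR 4.0.16 (R 4.3.3; filterByExpr with a minimum count of 10, TMM, glmQLFit and glmQLFTest), with 6 libraries for each comparison of 2 groups and all 12 for the interaction, and p-values were adjusted over all transcripts tested. Background percentages are over 1 transcript per gene. SE is the log2 fold change divided by the root of F. The scripts were tested on simulated data. DESeq2 1.42.0, other scalings and filters, 1 transcript or the sum per gene, and each library left out were alternatives. Python 3.11.15 (pandas 2.3.3, matplotlib 3.10.9) made the tables and figures.

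Each library's departure from its group mean was correlated across genes between libraries that share a number; the correlations between the sides were 0.478, 0.446 and 0.391 after acute and 0.518, 0.565 and 0.153 after chronic L-DOPA, all above the limit of 0.1 set for taking the numbers as pairs. Libraries of unlike number ran from -0.321 to -0.110 after acute and from -0.515 to 0.156 after chronic L-DOPA, where lesioned library 1 with unlesioned library 3 (0.156) exceeded pair 3 (0.153). Across treatments they reached 0.364. The study describes the unlesioned side as the control within a mouse, whereas the labels count 12 mice for 12 libraries. Replicates were not copies of each other (chi-square per degree of freedom 7.35 to 28.7). Where libraries did not come from separate mice, p-values measure only the spread between these libraries. Floors allow for counting error alone, because no molecular identifiers were used.

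The 9 genes, the lists of pathway genes and cell type markers and the motifs were chosen with earlier results of these data known. Named genes are the 9 members, genes that overlap them, pathway genes called in a comparison (at most the 5 largest changes in each) and the 3 genes most like each member with a median of at least 0.5 CPM. Some results for genes that this rule names are not reported here.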

Additional observations from a re-analysis of the deposited data

Results flagged for a closer look

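Among the 9 genes and the wider pathway list, the lesion effect differed between acute and chronic L-DOPA for 3 genes by edgeR's interaction test over 12 libraries without a block; with the replicate block Gch1, Maob and 4 more pathway genes were called too. For Th the difference, chronic minus acute, was 2.72 on the log2 scale (SE 0.22, adjusted p = 3.72e-06), with all 3 chronic lesioned libraries above all the other 9. For Pnmt it was 4.02 (SE 0.39, adjusted p = 1.94e-05), again with all 3 above the other 9. For Aldh2 it was -0.55 (SE 0.12, adjusted p = 0.0125), with means of 17.5 CPM in the acute unlesioned, 19.7 in the acute lesioned, 15.6 in the chronic unlesioned and 12.0 in the chronic lesioned striatum. The causes were not tested.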

How the results depend on the processing

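Over the alternatives run, 153 of 166 refits of the 12 called differences kept their direction and their call, and 13 lost the call, all of them for Gch1 or Ddc. Th and Pnmt kept their calls in all of them. Of 200 refits of the 15 called pathway differences, 176 kept the call and 24 lost it with the same direction. Of 328 refits of the 23 differences not called, 303 stayed so, 9 were called and 16 changed sign. The number of members called after acute L-DOPA went from 0 to 3 with the replicate block, and ran from 0 to 1 with a library left out. In the lesioned striatum it went from 5 to 3 at an adjusted p under 0.01 and ran from 3 to 5 with a library left out. In the unlesioned striatum it went from 2 to 1 with 1 transcript per gene and with the sum over transcripts, to 0 at an adjusted p under 0.01, and ran from 0 to 3 with a library left out. After chronic L-DOPA it went from 3 to 4 with the block, and for the interaction from 2 to 4. Among the 9 genes and Pdzd8, the block changed no other call than those of Th, Maoa, Maob, Gch1 and Pdzd8 given above.

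Changes of sign were seen in differences that were not called. By the sum over transcripts, Slc18a2 had 0.31 in the acute, -0.0445 in the lesioned, 0.0444 in the unlesioned comparison and -0.093 in the interaction. By its RefSeq transcript it had 0.37, -0.12, 0.045 and -0.17. With 1 transcript per gene it had 0.0022 in the unlesioned comparison. With a library left out, Slc18a2 ran from -0.0795 to 0.0611 and Th from -0.066 to 0.13 in the unlesioned comparison, and Ddc from -0.50 to 0.28 in the chronic comparison and from -0.62 to 0.16 in the interaction. The cause was not tested. The planned Slc18a2 transcript free of any Pdzd8 transcript gave no value, since all 9 overlap one. Depth limits Dbh and Slc6a3, at 0 to 8 reads, and 3 libraries against 3 mean that an exact permutation test could not go below p = 0.1.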
